A study of Mus musculus with 24 samples.

Results

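The genes described here are 10 p53 target genes and members of the BCL2 family, taken by symbol from a table of 18647 genes: Cdkn1a, Mdm2, Bax, Bbc3, Pmaip1, Bcl2, Bcl2l1, Bcl2l11, Gadd45a and Gadd45b. All 10 were found and all 10 passed the filter on low counts, which left 18153 genes for testing. The transcription factor p53 is stabilised by cell stress and switches on genes that stop the cell cycle, genes that limit p53 itself and genes that start cell death. Death through mitochondria is decided within the BCL2 family. BH3-only proteins such as PUMA and BIM bind and neutralise the guardians BCL2 and BCL-xL or activate BAX. BAX then opens pores in the outer mitochondrial membrane. In the hippocampus this family is best known for the loss of pyramidal neurons after prolonged seizures, and several of its genes are also transcribed in response to neuronal activity without p53.

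RNA was sequenced from microdissected hippocampal CA1 of adult C57Bl/6N mice after status epilepticus (SE), a prolonged seizure evoked with pilocarpine. Every animal first received scopolamine methyl nitrate, a muscarinic blocker that spares the brain, and later diazepam. SE animals were given 335 mg/kg pilocarpine hydrochloride and were kept only if SE developed, while control (Ctr) animals were handled in the same way with saline in its place. There were 3 libraries in each of 8 groups. Of the groups, 5 were taken after SE (6, 12 and 24 h on the first day, 36 and 72 h later) and 3 were controls matched to 12, 36 and 72 h. The SE groups at 6 and 24 h were therefore set against the mean of the 3 control groups, which these 2 comparisons share. Clock time is not matched in these 2 comparisons. The labels number the libraries of a group but do not say that each came from a separate animal, and the p-values measure the spread between these libraries. In bulk tissue, fewer cells of a type and less RNA per cell cannot be told apart.

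Library totals ran from 2663936 to 30133731 counts, and the lowest belonged to a Ctr 72 h library. Replicate 2 of Ctr 72 h stood apart: 12 sensory ganglion marker genes summed to 3333 CPM (counts scaled to the effective library size) in it, against 109 to 230 CPM in the other Ctr 72 h libraries, and the factor of unwanted variation used in the fit (RUVr) was loaded at 0.81 on it and at -0.37 and -0.36 on the others. The same markers summed to 1515 CPM in SE 12 h replicate 1, 1811 CPM in SE 36 h replicate 3 and 1961 CPM in SE 72 h replicate 1. CA1 pyramidal markers, of which 7 of 8 were in the table, summed to 764 to 1485 CPM in the controls. In the SE libraries they summed to 313 to 900 CPM, and none was at 0 throughout a group. The 313 CPM was that of SE 72 h replicate 1, beside 652 and 697 CPM in the other SE 72 h libraries. Dentate granule markers summed to 405 CPM in it, against 114 and 119 CPM in those libraries and 185 to 338 CPM in the controls. Results that rest on Ctr 72 h replicate 2 are given with and without it.

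Sequence near the annotated start sites of the members was read from the GRCm39 genome. It was searched for matches to the p53 response element, the paired decamer that p53 binds. The core C and G of each decamer had to match, and no spacer between the decamers was allowed. Elements outside these limits were not sought, so a member without a match is not shown to lack an element. With at most 1 mismatch at the other bases, the element was found within 3000 bases of the start site in 0.938% of 18552 genes. Cdkn1a was the member that held it, 2836 bases before its canonical start and just before the first annotated base of the gene (chr17:29309812-29309935, plus strand). With 2 mismatches allowed, 6.37% of genes held it, and Bax (chr7:45115998-45116017, minus strand, 308 bases after the start) and Pmaip1 joined. Within 300 bases upstream, the FOXO letters GTAAACA on either strand were found in 3.14% of genes and in Mdm2 (chr10:117546780-117546856, minus strand) and Bcl2l11 (chr2:127967691-127967777, plus strand). The AP-1 letters TGANTCA (6.36% of genes) and the CRE letters TGACGTCA (1.9%), each sought on both strands, were not in these 300 bases of any member. A match describes letters and not binding, and these 4 stretches are shown because they hold the matches, which are in capitals.
Cdkn1a: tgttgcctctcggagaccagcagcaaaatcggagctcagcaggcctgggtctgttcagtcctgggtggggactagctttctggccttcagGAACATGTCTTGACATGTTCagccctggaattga
Bax: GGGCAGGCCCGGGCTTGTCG
Mdm2: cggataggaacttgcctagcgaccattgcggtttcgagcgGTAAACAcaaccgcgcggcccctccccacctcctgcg
Bcl2l11: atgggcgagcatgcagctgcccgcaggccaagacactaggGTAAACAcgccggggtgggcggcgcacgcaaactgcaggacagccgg

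In control CA1 the members differed widely in level. Scaled to CPM per kilobase of exon, Bcl2l1 was the highest at 23 ± 3.03 (SD, n = 9), followed by Bax at 10.1 ± 0.930, Mdm2 at 7.56 ± 0.732 and Gadd45b at 5.49 ± 2.14. Gadd45a (2.15 ± 0.939), Bcl2 (1.93 ± 0.464), Cdkn1a (1.76 ± 0.789) and Bbc3 (1.75 ± 0.366) formed a middle group, and Pmaip1 (0.612 ± 0.249) and Bcl2l11 (0.564 ± 0.196) were the lowest. Neighbours within the middle group, Pmaip1 and Bcl2l11, and Mdm2 and Gadd45b differed by less than the larger SD. With the canonical transcript as the length, the first 4 places kept their order, while Cdkn1a moved from place 7 to place 5.

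Cdkn1a encodes p21, the CDK inhibitor that halts the cell cycle downstream of p53, and it rose at every time after SE. It stood at 12.7, 13.6 and 5.95 CPM in Ctr 12 h and at 137, 240 and 272 CPM in SE 12 h. In Ctr 36 h it was 3.09, 7.46 and 13.6 CPM against 55.2, 87.2 and 66.9 CPM in SE 36 h. In Ctr 72 h it was 7.85, 13.6 and 17.997 CPM against 66.0, 25.5 and 41.5 CPM in SE 72 h. No SE library overlapped its controls at any of these times. The log2 fold change was 4.36 ± 0.47 (standard error; adjusted p = 1.0e-06, from the quasi-likelihood test of edgeR after Benjamini-Hochberg correction over all genes) at 12 h. It was 3.13 ± 0.45 (adjusted p = 2.7e-05) for 36 h and 1.87 ± 0.47 (adjusted p = 0.0054) for 72 h. At 6 h the 3 libraries held 121, 164 and 109 CPM and at 24 h 147, 121 and 190 CPM, and against the 9 controls, the highest of which was 17.997 CPM, the log2 fold changes were 3.70 ± 0.31 and 3.92 ± 0.31.

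The Cdkn1a difference shrank between 12 and 72 h: the SE effect at 72 h minus that at 12 h was -2.49 ± 0.63 on the log2 scale (adjusted p = 0.0089). In that contrast 3 of 10 members were called, beside 18.6% of all genes. Without Ctr 72 h replicate 2, Cdkn1a at 72 h was higher by 2.00 on the log2 scale (adjusted p = 0.013). Its value at 72 h was 0.79 (adjusted p = 0.38, no call) when the range into which the sample number in the labels falls was a factor. No SE 72 h library shares a label number range with a Ctr 72 h library. At 72 h this range therefore cannot be told apart from SE. Genes on the other strand share 12.5% of the exon bases of Cdkn1a. One of them, Dino, averaged 0.163 ± 0.166 CPM over the controls and 2.00 ± 0.886 CPM (SD, n = 3) in SE 12 h. Counting was without strand, and by default HTSeq counts a read that overlaps both genes for neither. Cdkn1a may therefore lack reads from the shared bases, although it averaged 217 CPM in the SE 12 h libraries. The strand of the reads counted for Dino is not known either, so they may include RNA from the Cdkn1a strand.

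Mdm2 encodes the ubiquitin ligase that marks p53 for degradation and is itself switched on by p53, which closes a feedback loop. It was 55.1, 53.7 and 58.0 CPM in Ctr 12 h and 79.4, 83.9 and 125 CPM in SE 12 h, without overlap, and rose by 0.79 ± 0.14 on the log2 scale (adjusted p = 1.6e-04). Replicate 3 of SE 12 h was the highest, and without it the value was 0.56, below the fold that a call required (0.66 on the log2 scale against controls). At 6 and 24 h Mdm2 was higher by 0.64 ± 0.11 at both times (adjusted p = 1.1e-04 and 7.9e-05), also just short of that fold, and at 36 h by 0.37 ± 0.14 (adjusted p = 0.043). At 72 h the SE libraries held 62.0 to 69.5 CPM and overlapped the controls at 48.3 to 66.2 CPM, and the difference of 0.24 (95% interval -0.05 to 0.54) did not pass the test.

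Trp53, which encodes p53 and lay outside the rule for named genes, averaged 25.8 ± 2.81 CPM over the 9 controls. After SE it averaged 28.7 ± 3.01 CPM (6 h), 35.6 ± 3.64 CPM (12 h), 39.4 ± 6.41 CPM (24 h), 38.2 ± 0.402 CPM (36 h) and 39.3 ± 1.12 CPM (72 h). From 12 h on, its log2 differences of 0.39, 0.61, 0.62 and 0.62 passed an adjusted p of 0.05 and none reached the fold. Mdm4, the partner of MDM2, was between -0.24 and 0.01 in the 5 comparisons and passed in none. A level of mRNA says nothing of p53 protein, which is set mainly by its stability.

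Gadd45a and Gadd45b encode small stress sensors that bind PCNA and stress kinases; the first is a classical p53 target and the second is also induced by neuronal activity and NF-kB. Gadd45b was 11.6, 10.9 and 11.02 CPM in Ctr 12 h and 39.96, 94.6 and 104 CPM in SE 12 h. It rose by 2.81 ± 0.37 (adjusted p = 1.1e-05) at 12 h. Against the shared controls it rose by 2.76 ± 0.26 (6 h) and 2.77 ± 0.26 (24 h), in each case with every SE library above every control. At 36 h the libraries held 31.0, 42.4 and 53.9 CPM against 13.8, 18.4 and 15.8 CPM, a difference of 1.41 ± 0.36 (adjusted p = 0.0048). By 72 h it was 13.02, 12.97 and 28.8 CPM against 15.5, 18.4 and 31.5 CPM in the controls, and the groups overlapped. The fall from 36 to 72 h after SE was -1.22 ± 0.36 on the log2 scale (adjusted p = 0.033), and it was the 1 member called there, beside 4.16% of all genes called in either direction and 1.06% called lower. The SE effect at 72 h minus that at 12 h was -3.02 ± 0.52 (adjusted p = 6.4e-04).

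Gadd45a was 2.08, 3.59 and 2.98 CPM in Ctr 12 h and 9.59, 6.13 and 13.9 CPM in SE 12 h, without overlap. It rose by 1.75 ± 0.32 at 12 h (adjusted p = 2.8e-04). It also rose at 6 h by 1.41 ± 0.24 (adjusted p = 1.4e-04), where 1 SE library lay below the highest control, and at 24 h by 1.84 ± 0.24 (adjusted p = 4.3e-06), with no overlap. At 36 h the SE libraries stood at 5.93, 5.91 and 5.93 CPM against 2.59, 3.03 and 3.86 CPM. That difference of 0.91 ± 0.32 had an adjusted p of 0.036, and it lost its call when any of 5 of the 6 libraries was left out. At 72 h the value was 0.71 ± 0.34 (adjusted p = 0.12), and without Ctr 72 h replicate 2 it was 0.93 (adjusted p = 0.036). The antisense gene E230016M11Rik covers 55.8% of its exon bases. Counting was without strand, and by default HTSeq counts a read that overlaps both genes for neither. Gadd45a may therefore lack reads from the shared bases, and its level per kilobase may be too low. The log2 differences of E230016M11Rik itself ran from -0.93 to -0.18 in the 5 comparisons, opposite in sign to those of Gadd45a.

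**Figure D1:**
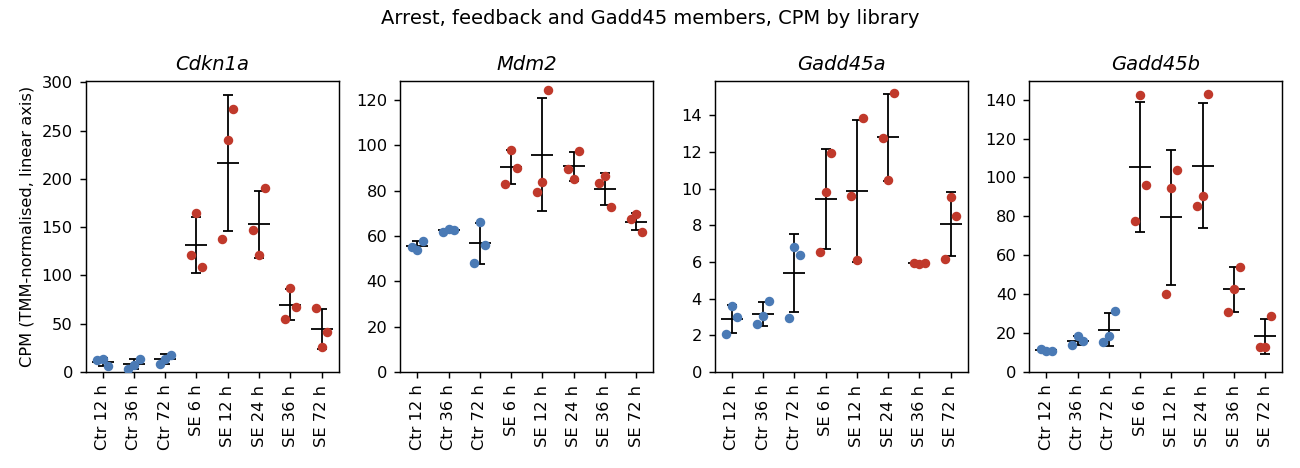
CPM (linear axis) of Cdkn1a, Mdm2, Gadd45a and Gadd45b in each library, with Ctr in blue, SE in red, and the group mean ± SD (n = 3) as a black bar. Cdkn1a stays above its controls through 72 h, whereas Gadd45b is back among them by then.

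Of the BH3-only genes, Pmaip1 encodes NOXA, a p53 target that neutralises MCL1. It was low throughout, with 1.01 to 3.29 CPM in the 9 controls, and it was highest 6 h after SE at 8.71, 8.42 and 6.11 CPM. It rose by 2.25 ± 0.32 at 6 h (adjusted p = 1.7e-05), with no overlap, and by 1.31 ± 0.42 at 12 h (adjusted p = 0.018), where the libraries held 2.48, 4.41 and 6.13 CPM against 1.89, 1.52 and 1.86 CPM. This 12 h call was lost without Ctr 12 h replicate 2 (adjusted p = 0.057), without SE 12 h replicate 3 (0.99, adjusted p = 0.097) and with the label number range as a factor (adjusted p = 0.085). At 24 and 36 h it overlapped the controls. At 72 h it was 4.38, 2.00 and 3.22 CPM against 1.01, 1.71 and 1.12 CPM, a difference of 1.38 ± 0.48 (adjusted p = 0.039). The depth behind this last value is small, since the 3 controls held 12, 10 and 3 counts, and the call was lost in 6 of the other fits and when any of 4 libraries was left out.

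Bcl2l11 encodes BIM, a BH3-only protein that binds all guardians and is driven by FOXO3 and by stress kinases in neurons. It was 12.1, 11.3 and 13.4 CPM at 6 h after SE, above all 9 controls, of which the highest was 7.12 CPM, and rose by 1.26 ± 0.18 (adjusted p = 2.2e-05). Without Ctr 72 h replicate 2 this rise was 0.94 and was still called. At 12, 24 and 36 h it overlapped the controls. At 72 h the SE libraries held 9.53, 8.68 and 10.9 CPM against 7.09, 0.853 and 7.12 CPM in Ctr 72 h, and the fitted difference was 1.36 ± 0.26 (adjusted p = 6.1e-04). That value rests on the middle control, replicate 2, with 5 counts: without it the difference was 0.45 (adjusted p = 0.24), although each SE library was still above both other controls. The difference in SE effect between 72 and 12 h went from 1.25 ± 0.35 (adjusted p = 0.015) to 0.33 (adjusted p = 0.56) without the same library.

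Bbc3 encodes PUMA, a strong p53 target that binds all guardians. At 12 h it was 5.32, 7.89 and 10.3 CPM against 9.09, 7.53 and 8.16 CPM and did not differ beyond the spread (-0.11, 95% interval -0.73 to 0.51). At 36 h it fell, from 9.35, 9.86 and 8.63 CPM to 4.37, 5.75 and 1.60 CPM, a difference of -1.30 ± 0.31 (adjusted p = 0.0030) with no overlap. It was the 1 member called lower in any comparison with control, and 8.92% of all genes were called lower at 36 h. At 6 and 24 h its differences of 0.35 and -0.47 did not pass. SE 36 h replicate 3 was the lowest library and also the one with 1811 CPM of sensory ganglion markers; without it the value was -0.87 (adjusted p = 0.024), still called. At 72 h it was 7.28, 4.67 and 8.67 CPM against 9.54, 4.09 and 8.999 CPM and overlapped.

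Bax, the pore-forming effector, moved little. It was 17.2, 21.2 and 16.1 CPM in Ctr 12 h and 19.5, 25.7 and 25.3 CPM in SE 12 h, an overlap of 1 SE library with 1 control. That difference was 0.37 ± 0.12 (adjusted p = 0.020), and with 0.39 ± 0.10 at 24 h (adjusted p = 0.0032) and 0.35 ± 0.12 at 36 h (adjusted p = 0.032) it passed the adjusted p but not the fold. At 6 h it differed by 0.01 (95% interval -0.20 to 0.22). At 72 h all 3 SE libraries, at 23.7 to 26.3 CPM, were above the controls at 19.7 to 20.6 CPM, and the difference of 0.30 had an adjusted p of 0.078.

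**Figure D2:**
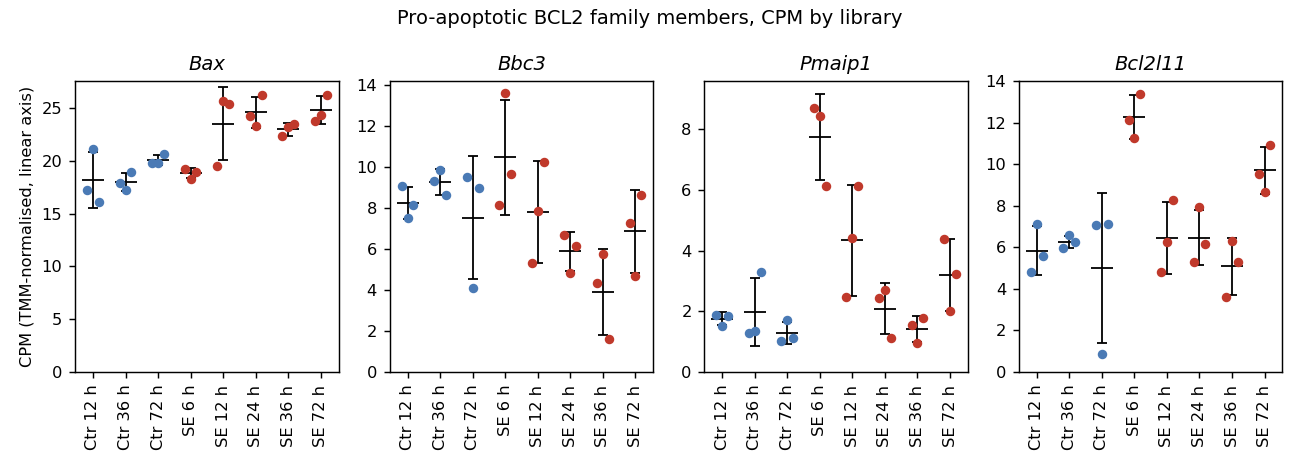
CPM (linear axis) of Bax, Bbc3, Pmaip1 and Bcl2l11 in each library, with Ctr in blue, SE in red, and the group mean ± SD (n = 3) as a black bar. Pmaip1 and Bcl2l11 are highest at 6 h, Bbc3 is lowest at 36 h, and the Ctr 72 h point of Bcl2l11 at 0.853 CPM lies far below the other controls.

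Of the guardians, Bcl2l1, which encodes BCL-xL, rose at 24 h. It was 193, 211 and 189 CPM then, against 90.4 to 140 CPM in the 9 controls, and the difference was 0.75 ± 0.09 (adjusted p = 2.4e-06). The SE 24 h libraries all fall in a label number range that holds no control. In this comparison the range therefore cannot be told apart from SE. At 6, 12, 36 and 72 h the groups overlapped and the differences lay between 0.00 and 0.20. The step from 12 to 24 h after SE was 0.59 ± 0.12 (adjusted p = 0.0055), under the log2 fold of 1 that a call between SE times required. Bcl2 was called in no comparison with control. Its nearest was at 36 h, when 21.7, 24.4 and 19.8 CPM stood above 15.97, 14.2 and 15.6 CPM with no overlap and a difference of 0.53 ± 0.23 (adjusted p = 0.083).

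Per kilobase, Bax over Bcl2 averaged 2.42 ± 0.24 on the log2 scale over the 9 controls and Bax over Bcl2l1 -1.18 ± 0.24. At 24 h after SE the first was 3.16 ± 0.36 and the second -1.54 ± 0.16 (SD, n = 3), and at 72 h they were 2.35 ± 0.20 and -0.71 ± 0.08. These ratios are given as a description. At 24 h all 3 libraries were above every control in the first ratio, and the second overlapped the controls.

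**Figure D3:**
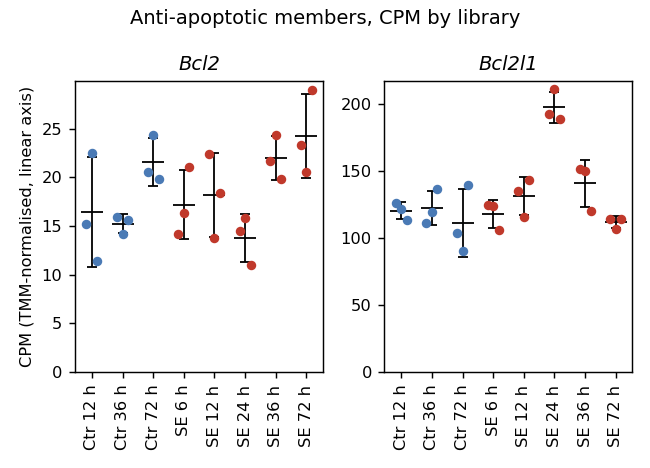
CPM (linear axis) of Bcl2 and Bcl2l1 in each library, with Ctr in blue, SE in red, and the group mean ± SD (n = 3) as a black bar. The 3 SE 24 h libraries of Bcl2l1, at 189 to 211 CPM, lie above all 9 controls.

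Counted over the members, 5 of 10 were called at 12 h, all higher, where 25.2% of all genes tested were called in either direction and 13.9% higher. At 36 h 3 were called higher and 1 lower (21.6% of all genes called, 12.7% higher), and at 72 h 3 were called higher (19.4% called, 15.2% higher). Against the mean of the controls, 5 were called higher at 6 h (22% called, 15.8% higher) and 4 at 24 h (24.2% called, 15% higher). The libraries of SE and control did not overlap for 5 members at 12 h, 7 at 36 h and 4 at 72 h, beside 47.7%, 51.9% and 32.8% of all genes, and for 5 at 6 h and 6 at 24 h, beside 22.2% and 23.6%. The median log2 difference of the members was 0.95 (6 h), 0.58 (12 h) and 0.27 (72 h), beside 0.06, 0.01 and 0.10 over all genes tested.

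Between consecutive SE times, edgeR's quasi-likelihood test called 0 members from 6 to 12 h (1.34% of all genes), 0 from 12 to 24 h (3.2%) and 0 from 24 to 36 h (0.54%). At an unadjusted p under 0.05 there were 2, 2 and 5 members in these steps (20.5%, 24.6% and 16.6% of all genes), and DESeq2 called 0, 0 and 2. Bcl2l11 was lower at 12 h than at 6 h by 0.97 ± 0.23 and higher at 72 h than at 36 h by 0.92 ± 0.23, both under the fold (adjusted p = 0.021 and 0.015). Between control groups edgeR and DESeq2 called 0 members, beside 0%, 0.959% and 1.94% of all genes, and the unadjusted p was under 0.05 for 0, 3 and 2 members (3.59%, 19.1% and 21.3% of all genes). The counts of called members at 12, 36 and 72 h are not themselves a test of change over time.

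**Figure D4:**
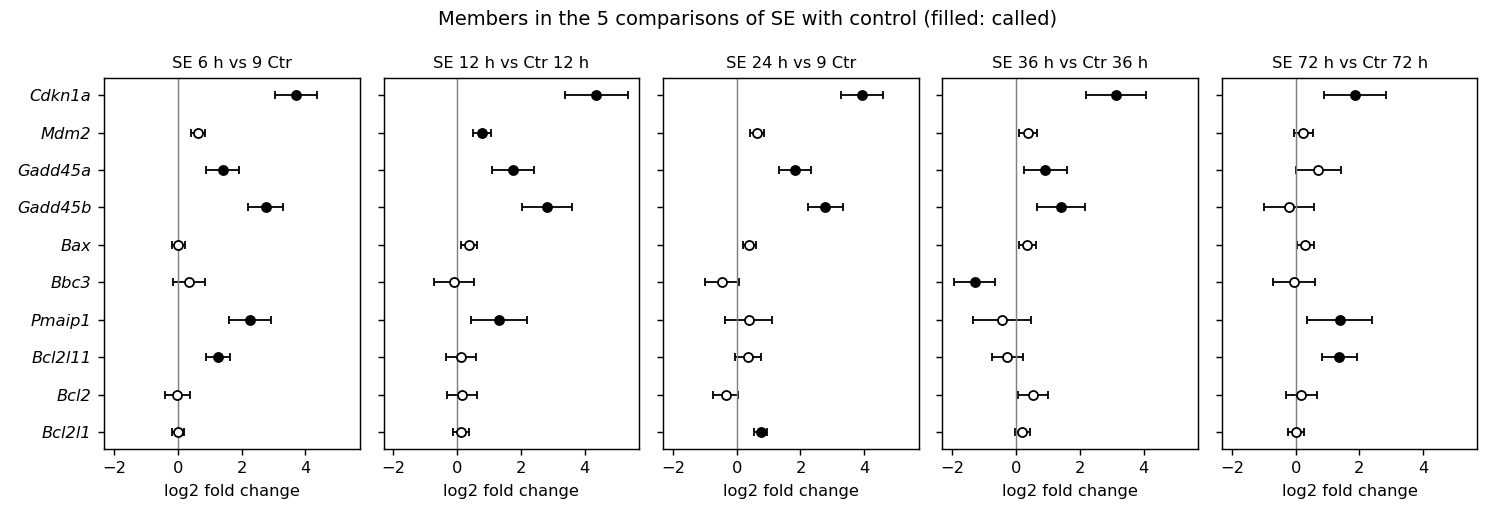
Log2 fold change of the 10 members in the 5 comparisons of SE with control, with 95% intervals from the fit and filled points where the member was called. Cdkn1a is called in all 5 panels, Gadd45b in the first 4, and Bbc3 at 36 h lies on the lower side.

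The courses of the members across the 24 libraries resembled some genes outside the set, given as a description over libraries that share the SE and control groups. Log2 CPM of Cdkn1a followed that of Pim1, a survival kinase (r = 0.956), and Mcl1 (r = 0.951), and that of Gadd45b followed Sertad1 (r = 0.945) and Gpr3 (r = 0.942). Bbc3 had no gene closer than Mroh7 (r = 0.802) among 13740 searched. Among the members, Cdkn1a with Gadd45b had r = 0.866 over the 24 libraries and 0.835 over the 15 SE libraries, whereas Bax with Bbc3 had -0.359.

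The other p53 target genes were mixed in direction. Of 30 tested, 10 were called higher and 3 lower at 12 h, 8 higher and 2 lower at 36 h, and 7 higher and 0 lower at 72 h. Against the shared controls, 10 were called higher and 2 lower at 6 h, and 10 higher and 5 lower at 24 h. Those called in either direction made up 43.3% of the list at 12 h, 33.3% at 36 h and 23.3% at 72 h, beside 25.2%, 21.6% and 19.4% of all genes. Their median log2 difference went from 0.59 at 12 h to -0.05 at 36 h, and it was 0.26 at 72 h. Sesn2, a stress-induced brake on mTORC1, averaged 19.7 ± 5.85 CPM over the controls and 82.9 ± 34.8 CPM in SE 12 h (log2 difference 2.08 ± 0.38, adjusted p = 3.1e-04), and was 17.1 ± 0.885 CPM at 72 h. Tnfrsf10b, the TRAIL death receptor, was called higher at all 5 times, by 2.14 at 6 h and 2.60 at 72 h (1.46 without Ctr 72 h replicate 2, still called), and Tap1, a peptide transporter, at the last 3 times by 1.51, 1.87 and 2.23. Sertad1, a cell cycle regulator, was higher by 2.75 ± 0.34 at 12 h and 0.29 at 72 h, where it did not pass.

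Regulators of p53 were called at shares of 15.8% to 26.3% of 19 tested, close to the background in each comparison. Hipk2, a kinase of p53, rose by 1.84 ± 0.36 at 6 h and 1.24 ± 0.47 at 12 h, and Ppp1r13l, the inhibitor iASPP, by 1.62 ± 0.33 at 12 h. Trp53bp2, which encodes the activator ASPP2, fell at 12 h (-0.88 ± 0.15), 24 h (-0.80 ± 0.13) and 36 h (-1.14 ± 0.15), and stood at 0.19 at 72 h. Chek1, a checkpoint kinase, rose by 1.49 ± 0.29 at 6 h (0.75 without Ctr 72 h replicate 2, still called). Its fitted 2.55 ± 0.48 at 72 h rests on the same library, without which it was 0.57 (adjusted p = 0.34).

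In the rest of the BCL2 family, Mcl1, the guardian that NOXA binds, averaged 88.1 ± 11.9 CPM over the controls and 278 ± 31.0 CPM at 24 h. It rose by 1.33 ± 0.08 (6 h), 1.68 ± 0.11 (12 h), 1.67 ± 0.08 (24 h) and 1.13 ± 0.11 (36 h), and at 72 h its 0.60 passed the adjusted p but not the fold. It was 1 of 5 further guardians tested, of which 2 to 4 were called higher and 0 lower in each comparison. The share of all genes called higher ran from 12.7% (36 h) to 15.8% (6 h). These 5 guardians include near-identical Bcl2a1 copies between which reads cannot be assigned with certainty. Of 8 further BH3-only genes, 0 were called higher and 3 lower at 12 h, and 1 was called lower at each other time, with 1 higher at 72 h. Over all genes, 11.4% were called lower at 12 h, 8.92% at 36 h and 4.17% at 72 h, and against the shared controls 6.2% at 6 h and 9.22% at 24 h. Bnip3 and Bnip3l, mitophagy receptors, fell by 1.06 and by 1.01 on the log2 scale at 12 h, and Bmf fell by 0.98. Bmf was also the gene called higher at 72 h, by 0.94, a call lost without Ctr 72 h replicate 2 (0.92, adjusted p = 0.074). Hrk, a neuronal BH3-only gene, averaged 104 ± 18.4 CPM over the controls and 26.2 ± 6.50 CPM at 36 h, a difference of -2.19 ± 0.37 (adjusted p = 1.3e-04). In the same groups the summed CA1 pyramidal markers went from 1451 CPM in Ctr 36 h to 764 CPM in SE 36 h and the neuron markers from 17060 to 10628 CPM, and their part in the Hrk value was not tested. Bak1, another pore former, was called higher at 4 of the 5 times, by 1.04 ± 0.16 at 24 h and 1.09 ± 0.22 at 72 h. Without Ctr 72 h replicate 2 its 72 h value was 0.76, still called. Its 6 h value went from 0.74 to 0.62 without that library, under the fold, and lost its call.

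Genes of the apoptosome, caspases and their inhibitors were called higher in 3 of 22 at 12 h, 10 of 22 at 36 h and 11 of 22 at 72 h, with 1 lower at 72 h. The share called at 12 h was 13.6%, below the 25.2% of all genes, and at 36 and 72 h it was 45.5% and 54.5%, beside 21.6% and 19.4%. Casp8, the initiator caspase of death receptors, averaged 3.14 ± 1.48 CPM over the controls and rose from 7.55 ± 1.34 CPM at 6 h to 20.9 ± 2.21 CPM at 72 h after SE (log2 difference 2.99 ± 0.29 at 72 h, and 2.05 without Ctr 72 h replicate 2). Naip2 and Naip5, inflammasome sensors counted in this list for their inhibitor domains, rose by 3.99 ± 0.56 and 3.36 ± 0.43 at 72 h (3.86 and 2.75 without that library), although reads of these near-identical paralogs cannot be assigned with certainty. Birc3, an inhibitor of apoptosis induced by NF-kB, was higher at all 5 times, by 2.18 ± 0.23 at 6 h. All 9 microglial markers tested were called higher at 72 h, and their summed level was 365 to 448 CPM in the 9 controls, 740 to 841 CPM in SE 36 h and 1578 to 2254 CPM in SE 72 h. At 6 h, when Casp8 and Birc3 were already called higher, the sum was 261 to 304 CPM, below every control. Their part in these results was not tested.

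Cdkn2c, another CDK inhibitor, averaged 2.07 ± 0.573 CPM over the controls and 14.99 ± 1.62 CPM at 72 h (log2 difference 2.99 ± 0.36), while 11 of 11 proliferation genes were called higher at 36 and at 72 h and their sum was 18.2 to 37.3 CPM in the controls and 268 to 345 CPM in SE 72 h. Gadd45g followed Gadd45b at the early times, higher by 3.22 ± 0.35 at 6 h and 3.31 ± 0.51 at 12 h and by 0.12 at 72 h, where it did not pass, and Pcna was called higher at 4 of the 5 times. Among stress transcription factors that act on BH3-only genes, Atf3 rose by 5.74 ± 0.80 at 12 h, Atf4 by 1.80 ± 0.17 and Jun by 1.88 ± 0.43, and at 72 h none of these 3 passed. Atf3 controls were not level: it averaged 0.632 CPM in Ctr 12 h and 7.21 CPM in Ctr 72 h, beside 12.0 CPM in SE 72 h. Jun held 112 to 166 CPM in SE 72 h and 78.1 to 93.4 CPM in Ctr 72 h. Atf4 averaged 84.5 CPM in SE 72 h and 96.3 CPM in Ctr 72 h. Foxo6 fell by 2.18 at 36 h.

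**Figure D5:**
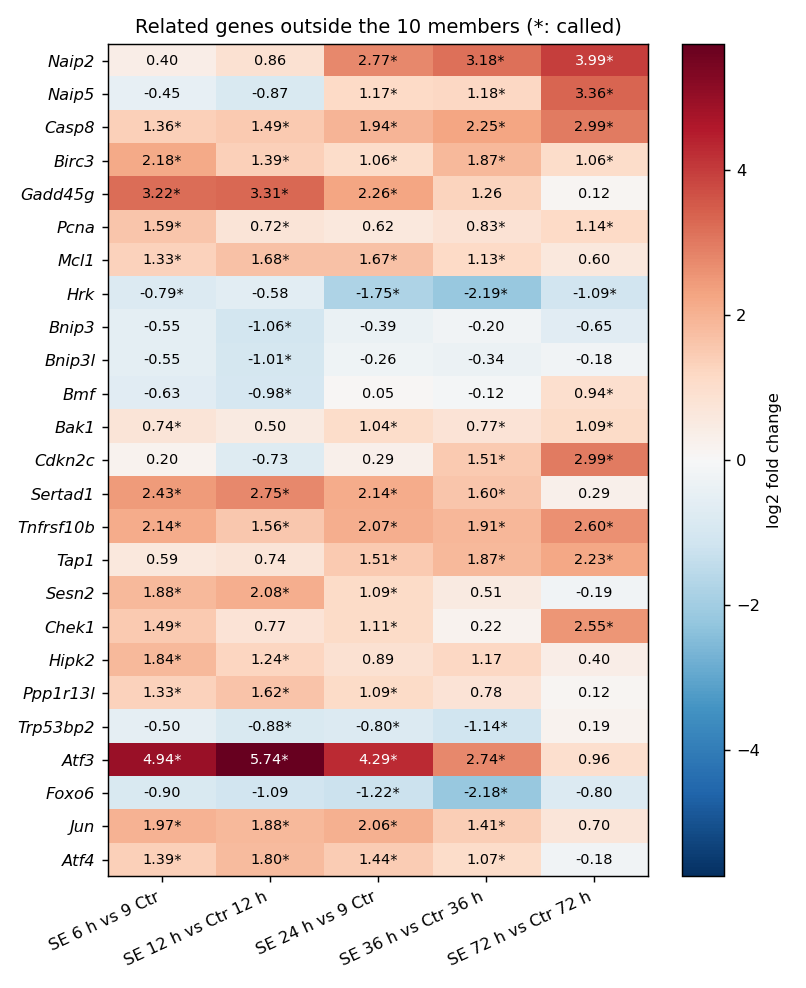
Log2 fold change, by colour and number, of the 25 genes outside the members that the naming rule chose, in the 5 comparisons of SE with control, with an asterisk where called. Naip2, Casp8 and Cdkn2c are strongest at 72 h, and Gadd45g, Atf3 and Sertad1 at 6 and 12 h. The 72 h value of Casp8, 2.99, leans on Ctr 72 h replicate 2 and is 2.05 without it.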

How the data were processed

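Libraries were polyA RNA (TruSeq, unstranded kit) from CA1. The authors deposited whole-number counts per gene; the submitters' processing notes name Trim Galore 0.6.6, STAR 2.7.8a, SAMtools 1.10, HTSeq 0.13.5 and GRCm39, and the study's methods give counting without strand. Symbols came from GENCODE on the same build, matched for 18552 of 18647 IDs. The release was newer than the one named in the study's methods. Exon lengths and shared exon bases also came from the newer release, so they may differ from the exons that were counted. From the counts, edgeR 4.0.16 (R 4.3.3) was run with a filter on low counts and a correction for unwanted variation, which the study's methods also used, although their fits were pairwise by edgeR, DESeq2 and voom together. The settings here were filterByExpr over the 8 groups, TMM, 1 RUVr factor, one quasi-likelihood fit over all 24 libraries and Benjamini-Hochberg adjustment over 18153 genes. Calls required an adjusted p no higher than 0.05 together with a log2 fold change, in either direction, of 0.66 or more against controls and in the 72 h minus 12 h contrast, or 1 between SE times. The fit recovered known changes in simulated counts for SE 12 h against Ctr 12 h. That simulation held no unwanted factor and no aberrant library, and the other comparisons were not simulated. DESeq2 1.42.0 and limma 3.58.1 served as alternatives, with other scalings, filters, factors, thinning and each library left out. Levels are CPM after TMM scaling; levels between genes are per kilobase of exon union. Members and lists were chosen with earlier results of these data known. Other genes were named by a rule: up to 4 per list with the largest change among the called genes whose mean log2 CPM reached 1, and the 2 genes whose log2 CPM correlated best with each member. Replicate numbers were not treated as pairs, since the deviations of same-numbered libraries did not all correlate. Library totals (2663936 to 30133731 counts) limit precision for low genes, above all in Ctr 72 h, and cover counting error only.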

Additional observations from a re-analysis of the deposited data

Results flagged for a closer look

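Among the 9 control libraries, 4 of the 10 members had a library far from the others, by the gap to its nearest neighbour as a share of the whole range. These were Bbc3 in Ctr 72 h replicate 2 (0.596), Bcl2l11 in the same library (0.634), Pmaip1 in Ctr 36 h replicate 3 (0.613) and Gadd45b in Ctr 72 h replicate 3 (0.636), each above Dixon's 95% critical value for 9 libraries. Chance alone gives such a gap in about 1 in 20 groups. Bcl2l11 was 0.853 CPM in that library, beside 4.83 CPM in the next lowest.

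The SE effect differed between 72 and 12 h, by the contrast of both effects in the same fit, for Cdkn1a (-2.49 on the log2 scale), Gadd45b (-3.02) and Bcl2l11 (1.25). For Bcl2l11 the difference was 0.33 without Ctr 72 h replicate 2.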

How the results depend on the processing

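The 72 h count of 3 called members went to 1 without the RUVr factor, to 1 with at least 10 counts in every library and to 1 with the range of the label number as a factor. The filter of 10 counts left Pmaip1 and Bcl2l11 untested, since each had a Ctr 72 h library below it. At 72 h the label range cannot be told apart from SE. The same holds at 24 h, since no control shares the label range of the SE 24 h libraries. From 6 to 12 h the count of 0 became 1 with limma-voom, 1 with the label range, 1 with every library thinned to the smallest total, 1 by adjusted p alone and 1 at a log2 fold of 0.66, and from 12 to 24 h it became 1 by adjusted p alone. From 24 to 36 h it became 2 with DESeq2 and 2 in the compared groups only. From 36 to 72 h the count of 1 became 2 with limma-voom, 2 with thinning, 0 in the compared groups only, 2 by adjusted p alone and 2 at a log2 fold of 0.66.

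Leaving out each library in turn, the counts ran from 3 to 5 (12 h), 3 to 4 (36 h), 2 to 3 (72 h), 5 to 6 (6 h) and 4 to 5 (24 h). They ran from 0 to 1 between 6 and 12 h, 0 to 2 between 24 and 36 h, 0 to 2 between 36 and 72 h, 2 to 5 for the interaction, and 0 to 3 over the control groups. The 5 and the last 3 came without Ctr 72 h replicate 1. The low 12 h count of 3 came without SE 12 h replicate 3, when Mdm2 and Pmaip1 (0.99, adjusted p = 0.097) lost their calls. The Gadd45b step from 36 to 72 h was lost without SE 36 h replicate 2 or 3 or SE 72 h replicate 1 or 2 (adjusted p from 0.090 to 0.14).

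With the replicate number as a block, the counts were 5, 4, 2, 5 and 4 against controls, 1 from 24 to 36 h and 3 for the interaction. The pairing was not taken up, since 4 of 9 same-numbered pairs had deviations correlated above 0.1 (range -0.20 to 0.18). Scaling by library size alone moved the median log2 difference of all genes at 36 h from 0.00 to 0.13 and the calls from 2310 higher and 1620 lower to 2789 and 1198, and changed no member's call. Depth limits Pmaip1, Bcl2l11, Bbc3 and Gadd45a in the smallest Ctr 72 h libraries most. The causes of these changes were not tested.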
